A study of Mus musculus with 18 samples.

Results

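Transfer RNAs leave a trail of short pieces in libraries of small RNA, and these pieces were counted here in mouse embryonic stem (ES) cells with and without cisplatin. The sequences described are those named for a tRNA gene of any anticodon other than HisGTG in the deposited tables of small RNA sequencing and of the small RNA portion of RNAome sequencing. In the small RNA table they were 2359 of 14831 entries, under 139 tRNA names and 44 anticodons, and the other 200 tRNA entries were HisGTG. Of the RNAome table they were 3184 of 27901 entries, under 170 names and 49 anticodons, beside 307 HisGTG entries. All 44 anticodons of the small RNA table were also in the RNAome table, and 1202 sequences stood in both, holding 78.3% of the counts in the small RNA table and 76.5% in the RNAome table.

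The cells were HPRT-deficient ES cells of strain C57BL/6, grown on feeders and then on gelatin. One group of 3 RNA samples received 2.5 µM cisplatin, a DNA crosslinking drug, and the other 3 received the solvent DMSO; how long they were exposed is not stated in the labels. Each RNA sample went into a small RNA library, made with a kit that captures molecules already short, and an RNAome library, in which total RNA was depleted of ribosomal RNA, fragmented and ligated to small RNA adapters. The same RNAs were also sequenced as mRNA. Replicates 1, 2 and 3 are named in the order of their sample codes within each treatment. The labels do not tell whether replicates were separate cultures, and the spread behind every p-value may therefore be technical. In the small RNA libraries both treatments carried the same 3 indexes, so samples sharing an index were sequenced in separate pools; if each pool held 1 treatment, pool and treatment cannot be told apart.

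A tRNA is transcribed by RNA polymerase III, trimmed at both ends, given the bases CCA at its 3′ end and modified at many positions. Cells also hold pieces of mature tRNAs. Cuts in the anticodon loop give long 5′ and 3′ pieces, while cuts in the T loop give short 3′ pieces that still carry CCA. Some modified bases are misread when RNA is copied into DNA: inosine, made from adenosine at the anticodon's first position, is read as G, and 1-methyladenosine at position 58 in the T loop often gives another base or stops copying.

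The sequences were placed on 244 distinct tRNAs of 437 gene copies, rebuilt from the mouse genome build NCBIM37 (mm9). Positions are counted from the first base of the mature tRNA, so its anticodon lies near positions 34 to 36. Below are the abundant 5′ end sequences the results turn on, each starting at position 1, with the bases inside the anticodon loop in capitals. Those start 2 bases before the anticodon: at position 32 where the anticodon begins at 34, and at position 31 in the 71-base GlyGCC and GlyCCC tRNAs, where it begins at 33.
ValCAC: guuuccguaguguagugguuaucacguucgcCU
ValAAC with G at the anticodon's first position: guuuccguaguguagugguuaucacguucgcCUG
GlyGCC: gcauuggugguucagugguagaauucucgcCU
GlyCCC: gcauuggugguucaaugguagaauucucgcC
GluTTC: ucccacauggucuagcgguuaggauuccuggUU
GluTTC of a second gene: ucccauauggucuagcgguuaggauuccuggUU
AspGTC: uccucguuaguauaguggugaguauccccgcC
GlnTTG: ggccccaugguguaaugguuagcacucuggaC
The ValCAC sequence is at the start of a 73-base tRNA gene at chr1:173041574-173041646, plus strand, which is intergenic in GENCODE vM1 and is 1 of 5 copies that hold the sequence. The ValAAC sequence matched the tRNA at chr11:48670139-48670211, plus strand, intergenic, except for A34G; here and below the genome base comes first, then the position, then the sequence's base. The first 33 bases of the ValCAC and ValAAC sequences are the same, so a piece ending there cannot be assigned to either anticodon from its letters. GlyGCC begins at chr1:172975116-172975186, plus strand, and GlyCCC at chr3:96227956-96228026, minus strand, both intergenic. The first GluTTC gene is at chr13:23555404-23555475, plus strand, in an intron of Btn1a1, and the second is intergenic at chr1:34491657-34491728, minus strand. AspGTC is at chr5:125885977-125886048, minus strand, and GlnTTG at chr13:23610919-23610990, plus strand, both intergenic. The AspGTC sequence, held by 13 AspGTC copies, also matches a tRNA of another anticodon exactly.

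The 3′ sequences the results turn on end at the added CCA, which is not in the gene. In these lines the CCA is in capitals, together with any base that differs from the genome.
GlyCCC, A56T: ucgUuucccggccaaugcaCCA
GlyTCC, A57T: ucgUuucccggccaacgcaCCA
LysTTT, A58G: ucaGgucccuguucgggcgCCA
AlaTGC: ucgauccccggcaucuccaCCA
LysTTT of 28 bases, A58G: caggguucaGgucccuguucgggcgCCA
Each of the first 3 differs from its gene at the T-loop adenosine that carries 1-methyladenosine, called position 58 by convention although it is the base 56, 57 or 58 in tRNAs of different length. AlaTGC, shown for comparison, has the genome's base there. GlyCCC is at chr3:96155090-96155160, minus strand, in introns of the lincRNAs Gm17580 and Gm17667. GlyTCC is at chr1:172968128-172968199, minus strand, LysTTT at chr1:134930539-134930611, plus strand, and AlaTGC at chr5:125884620-125884691, minus strand, all 3 intergenic.

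The tables hold counts summed per distinct sequence, from 4826269 to 13428891 per library in the small RNA table and from 1587446 to 4515956 in the RNAome table. The tRNA sequences described had 178367 to 410552 of these counts in the small RNA libraries and 37577 to 106680 in the RNAome libraries. The tables do not list true zeros for tRNA or miRNA: the lowest value was 5 for small RNA sequencing and 1 for RNAome sequencing, and often all 3 libraries of a treatment sat at it together. This was so for 749 of the 2359 small RNA sequences (2.04% of their counts) and for 1854 of the 3184 RNAome sequences (5.87% of their counts). For such sequences no fold change is given. Among sequences with 10 or more counts in every RNAome cisplatin library, 46 were at the lowest value in all 3 control libraries, none in exactly 2 and 25 in 1. Cisplatin replicate 1 of the RNAome libraries stood apart from the other cisplatin libraries in its tRNA sequences, as the values below show. ES cell markers were present in all mRNA libraries, with a summed level of 3910 to 4131 CPM after cisplatin and 4509 to 4752 CPM in controls. Of the 7, 5 fell, where 19.3% of 13924 genes tested fell and 18.5% rose, and Pou5f1 was the most abundant. The 7 markers of feeder fibroblasts summed to 33.5 to 66.8 CPM after cisplatin and 40.7 to 59.5 CPM in controls, and none of them passed the test.

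Short 3′ pieces and long 5′ pieces made up most of the tRNA counts in small RNA sequencing. Pieces of 17 and 18 bases held 12% and 17% of the tRNA counts, and those of 22 bases held 14.7%; nearly all of these were 3′ CCA ends. Pieces of 33 and 34 bases held 11.2% and 8.86% and were mostly 5′ ends. In the RNAome table, whose longest sequence was 33 bases against 36 in the other, the 33-base class alone held 25%, followed by 32 bases with 15.3% and 31 bases with 9.49%. The short 3′ classes were lower there and a class of 15 bases, with many sequences that could not be placed, held 7.01%.

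**Figure D1:**
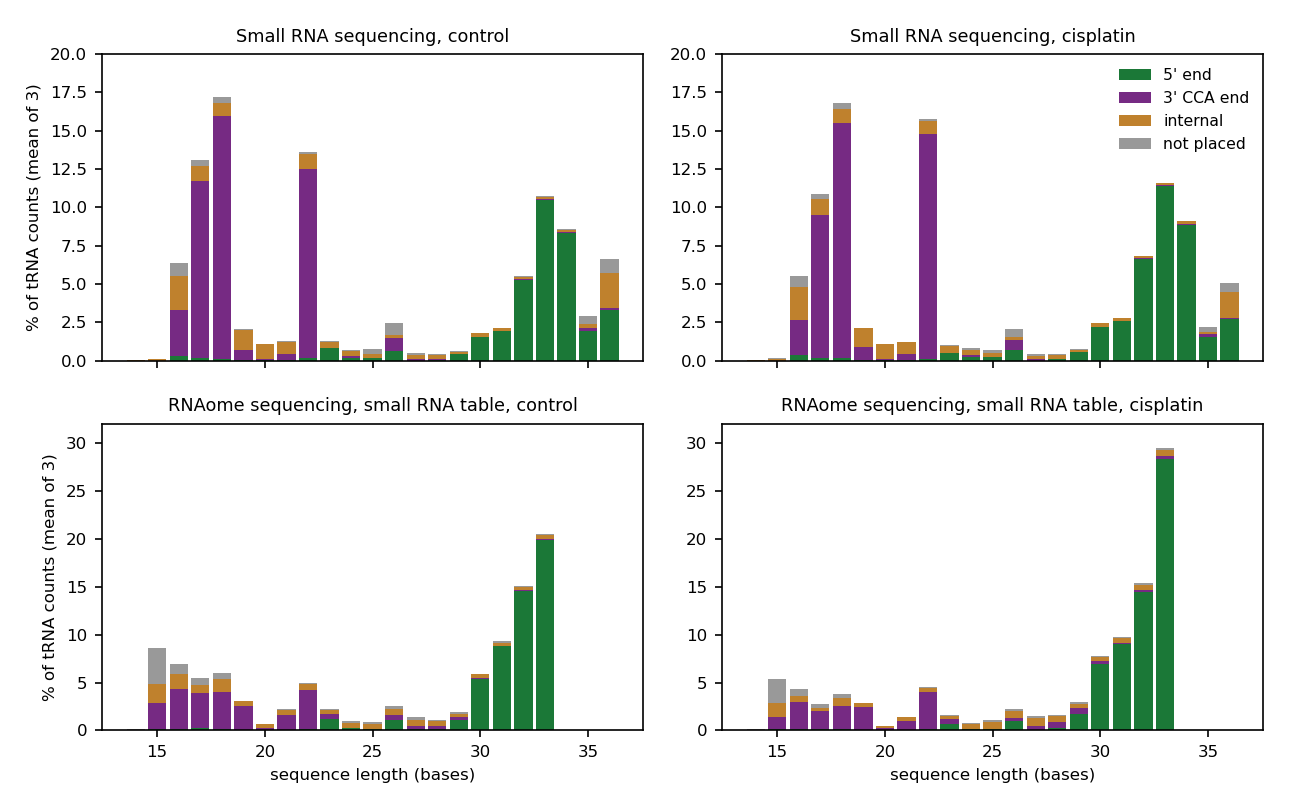
Share of tRNA counts (y axis, percent, mean of 3 libraries) by sequence length in bases (x axis), coloured by place on the tRNA, for each table and treatment. The 3′ CCA ends peak at 17, 18 and 22 bases, and the 5′ ends lie mostly between 30 and 34 bases, with the RNAome table ending at 33.

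Paired by RNA sample, 5′ ends made up 37.6% ± 3.17 (SD, n = 6) of the tRNA counts in small RNA sequencing and 58.5% ± 15.2 in RNAome sequencing, higher in 6 of 6 pairs (exact sign-flip permutation test, two-sided p = 0.03125, the smallest 6 pairs can give; 0.0625 after Benjamini-Hochberg adjustment over 10 measures). The 3′ CCA ends went the other way, 44.9% ± 2.25 against 22.4% ± 9.23, lower in 6 of 6 pairs with the same p. Neither passed the adjusted threshold. The 5′ ends ended in the anticodon loop in both tables: 84.7% of their counts in small RNA sequencing and 83.3% in the RNAome table had their last base between positions 32 and 36, with each tRNA numbered so that its anticodon begins at 34. Position 33 alone, the base before the anticodon, was the last base for 29.2% and 58.8%. In neither measure are the 2 tables alike, since no RNAome sequence was longer than 33 bases and few could end past position 33. Whether RNAome pieces listed as ending there were longer in the cell was not tested. In small RNA sequencing 23.5%, 9.56% and 6.25% ended at positions 34, 35 and 36.

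Valine and glycine tRNAs supplied the most counts. In small RNA sequencing valine anticodons held 19.1% ± 1.10 (SD, n = 6 libraries) of the tRNA counts, glycine 13.9% ± 1.82, lysine 11.8% ± 0.699, alanine 10.7% ± 0.574, glutamate 10.4% ± 1.14 and proline 9.11% ± 1.37. Glycine held 38.9% ± 5.72 and valine 25.2% ± 7.19 of the RNAome tRNA counts, while alanine held 3.23% ± 1.14 and proline 1.45% ± 0.791. Of the 21 amino acid labels, 2 held a larger share in the RNAome table, glycine and selenocysteine (0.0408% against 1.80%), and 13 a smaller one (exact paired permutation test, adjusted p = 0.04375, higher or lower in 6 of 6 pairs). Most of the RNAome selenocysteine share was the label SeCTCA, which held 1.25% of the tRNA counts, had no counts in small RNA sequencing and was 99.3% a single 15-base sequence that was not placed on a tRNA. Shares sum to a whole, so a rise of one label lowers the rest.

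**Figure D2:**
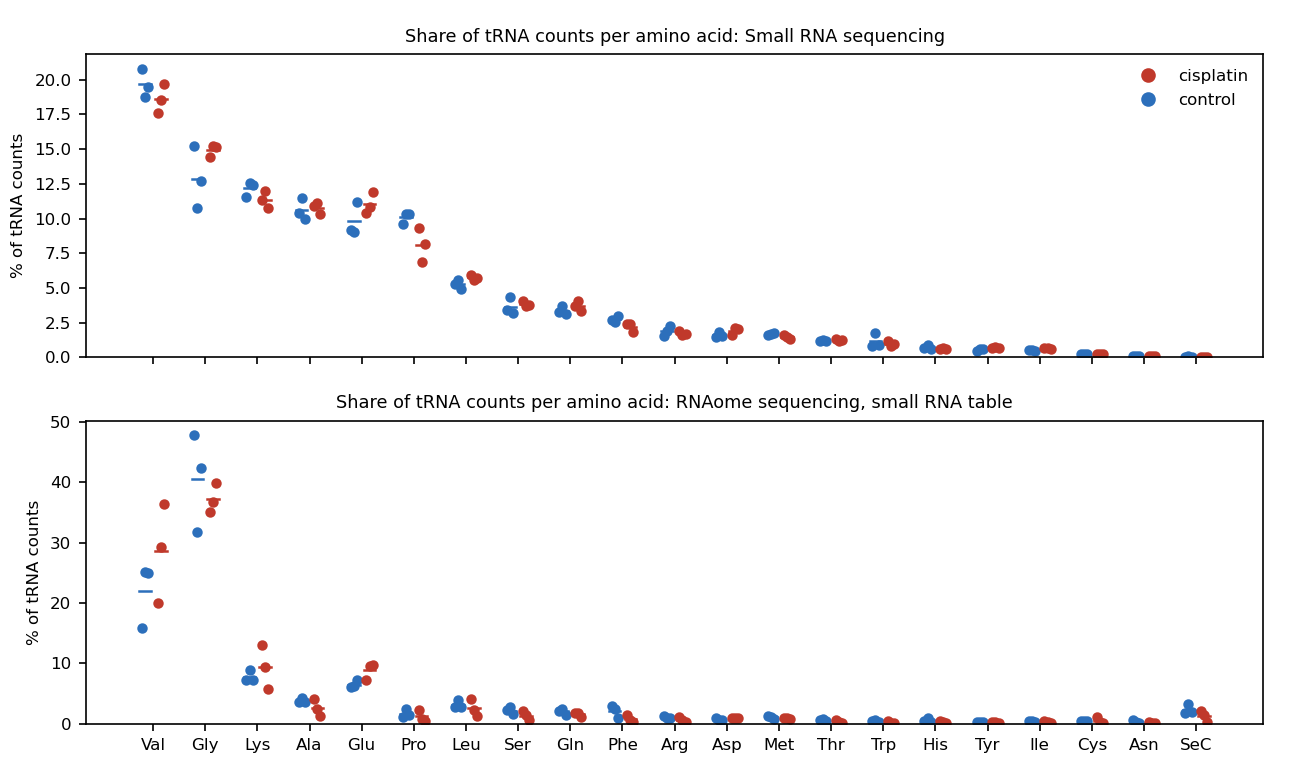
Share of tRNA counts held by each amino acid (y axis, percent) in each library, with lines at the means of 3 libraries, ordered by the level in small RNA sequencing. Glycine and valine lead the RNAome table, and proline and alanine are far lower there than in small RNA sequencing.

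The leading anticodons differed in which end of the tRNA they came from. ValAAC, ValCAC, GlyGCC and GluCTC were mostly 5′ ends in small RNA sequencing, with 93.1%, 75.3%, 81.4% and 93.9% of their counts. ProAGG and AlaTGC were nearly all 3′ CCA ends, 93.5% and 93.4%, and LeuCAG was 76.3%. LysTTT was mixed, with 45% at the CCA end and 37% internal. One sequence could dominate: in the RNAome table the ValCAC sequence printed above made up 79.4% of all ValCAC counts, and in small RNA sequencing 37.9%. A single 18-base CCA end made up 62.8% of ProAGG in small RNA sequencing.

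A joint fit over both tables compared levels relative to all miRNA and tRNA features. Of 44 anticodons, 27 were higher in the RNAome table and 5 lower (edgeR quasi-likelihood test, adjusted p under 0.05), where 36.5% of all features were called higher and 36.7% lower. The largest differences, as log2 RNAome over small RNA, were SeC(e)TCA at 5.2 ± 0.37 (SE), GlyTCC at 4.71 ± 0.34, GlyGCC at 3.41 ± 0.29 and LeuTAA at 2.95 ± 0.23. The lowest were ProAGG at -1.26 ± 0.25, SerCGA at -0.78 ± 0.20, ValTAC at -0.72 ± 0.14 and GlnCTG at -0.65 ± 0.14. With scaling to tRNA features alone, 12 were higher and 18 lower. No SeC(e)TCA sequence of either table was placed on a tRNA. For LeuTAA 50.5% of the RNAome counts were not placed, against 4.19% in small RNA sequencing. The GlyTCC level in the RNAome table rested on sequences with C66G, which made up 86.5% of its counts there and none in small RNA sequencing; whether they come from this tRNA was not tested.

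Relative to miRNAs, tRNA sequences were more abundant after cisplatin in both tables. They made up 5.51%, 5.15% and 6.64% of the miRNA and tRNA counts in the 3 small RNA libraries of cisplatin and 4.63%, 4.61% and 4.61% in the 3 controls. All cisplatin libraries were above all controls, by 1.15 percentage points between the means (5.77 ± 0.776 against 4.62 ± 0.0104, SD). The RNAome shares were 10.9%, 13.8% and 13.9% after cisplatin and 7.95%, 6.08% and 6.76% in controls. Again the groups did not overlap, with means 5.95 points apart. Without cisplatin replicate 3 the small RNA difference was 0.713 points. The exact permutation p was 0.1 in both, which is the smallest that 3 against 3 libraries allow. As a share of the whole RNAome table, which also holds other genomic fragments, the values overlapped: 2.36%, 3.98% and 4.63% against 2.41%, 2.48% and 2.37% (exact p = 0.4). In that count cisplatin replicate 1 was the lowest of the 6 libraries.

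Split by place on the tRNA, the 5′ ends differed most between the treatment means. Small RNA sequencing gave 2.14, 2.15 and 3.0 counts of 5′ ends per 100 miRNA counts after cisplatin and 1.88, 1.58 and 1.79 in controls. The 3′ CCA ends were at 2.76, 2.37 and 3.02 against 2.17, 2.33 and 2.13 counts per 100 miRNA counts. Both classes, and internal pieces, were higher in every cisplatin library than in any control (exact p = 0.1). RNAome 5′ ends were at 5.0, 11.3 and 13.7 counts per 100 miRNA counts against 4.55, 3.07 and 4.42. Cisplatin replicate 1 lay just above the highest control and replicates 2 and 3 well above. The 3′ CCA ends were at 4.06, 2.83 and 1.41 against 2.28, 2.01 and 1.40, so those groups overlapped (exact p = 0.4). Accordingly, 5′ ends made up 40.3% of tRNA counts in cisplatin replicate 1 but 68.1% and 82.2% in replicates 2 and 3, against 52.4%, 47.2% and 60.8% in controls.

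**Figure D3:**
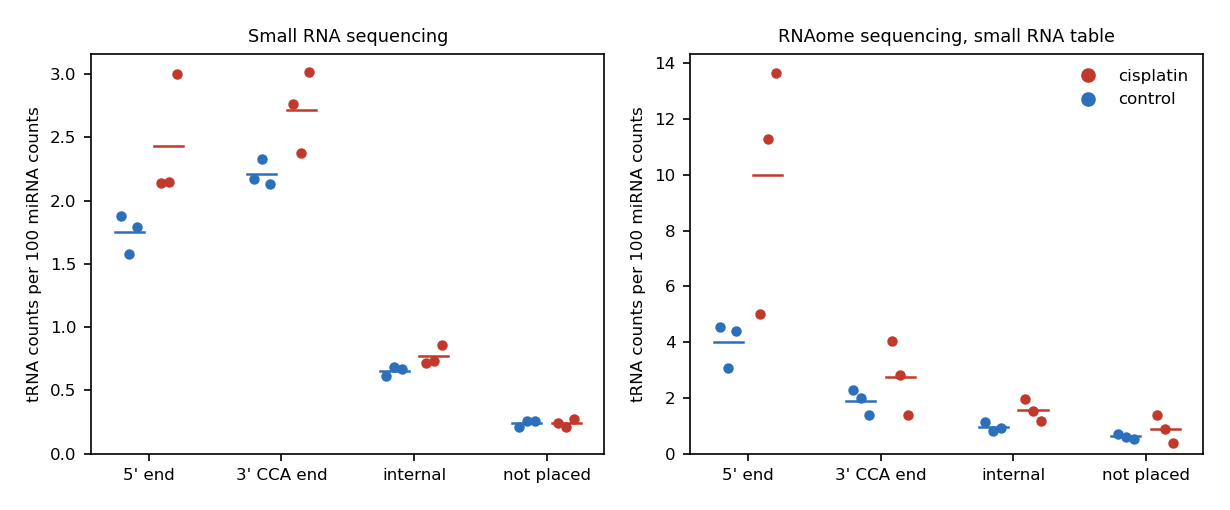
tRNA counts per 100 miRNA counts (y axis) by place on the tRNA, one point per library and a line at the mean of 3, in small RNA sequencing (left) and the RNAome table (right, with another scale). The 5′ ends of all cisplatin libraries lie above all controls in both tables, while the 3′ CCA ends of the RNAome table overlap.

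The count-weighted mean length did not separate the treatments. It was 25.1 ± 0.373 bases after cisplatin and 24.8 ± 0.581 in controls in small RNA sequencing (SD, n = 3, exact permutation p = 0.5), and 27.8 ± 3.38 against 25.8 ± 1.2 in the RNAome table (exact permutation p = 0.4).

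In small RNA sequencing 12 of 44 anticodons rose after cisplatin and none fell, by edgeR's quasi-likelihood test with Benjamini-Hochberg adjustment over 588 miRNA and anticodon features. Among all of these features 6.63% were called higher and 1.87% lower. The median log2 fold change of the 44 was 0.34, against -0.04 over all features, and 39 were above 0. At an unadjusted p under 0.05 there were 28 higher and none lower. The groups did not overlap for 25 anticodons, all higher in cisplatin, where 15.5% of all features were higher without overlap and 12.8% lower. The count of 12 rested on each library in part: it was 5 without cisplatin replicate 1, 4 without cisplatin replicate 3, 3 without control replicate 1, 3 without control replicate 3 and 18 without control replicate 2. It was 1 with other genomic fragments added to the features and 4 with a replicate block by the middle number of the sample code. Without sequences at the lowest value throughout a treatment 8 of the 12 remained, where 3.76% of features were called higher and 0.358% lower. LeuCAG, AlaAGC, ArgACG and ArgCCT then had edgeR adjusted p of 0.0563, 0.0656, 0.0656 and 0.0774. Scaled to tRNA features alone, 2 were higher and 1 lower.

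GlyTCC, a glycine tRNA present mostly as its CCA end, rose most clearly. It was at 725, 632 and 722 CPM (TMM-scaled, relative to the summed miRNA and tRNA counts) after cisplatin and at 363, 353 and 311 CPM in controls. Its log2 fold change was 1.02 ± 0.11 (SE, edgeR adjusted p = 0.00184). The printed 22-base GlyTCC sequence with A57T made up 74.3% of GlyTCC counts. The same 22 bases with A in place of that T were counted under GlyCCC. In the fit of single sequences they were at 449, 428 and 369 CPM against 296, 217 and 297 (0.62 ± 0.15, edgeR adjusted p = 0.0359). GlnCTG was at 564, 419 and 502 against 272, 276 and 300 CPM, a log2 fold change of 0.81 ± 0.13 (edgeR adjusted p = 0.0085). For GlyTCC and GlnCTG, every cisplatin library was above every control. GlnCTG had no CCA ends among its sequences.

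ProTGG was at 371, 367 and 411 CPM against 250, 221 and 239, and rose by 0.69 ± 0.10 on the log2 scale (edgeR adjusted p = 0.0083). IleAAT was at 290, 254 and 294 against 190, 169 and 166 CPM, with a log2 fold change of 0.67 ± 0.11 (edgeR adjusted p = 0.0118). GluTTC, one of the abundant anticodons, was at 3229, 3479 and 4286 against 2273, 2374 and 2531 CPM, 0.61 ± 0.11 on the log2 scale (edgeR adjusted p = 0.0177). The groups of these 3 did not overlap. The other rises by adjusted p were ThrCGT (log2 fold change 0.58), TyrGTA (0.56), ThrAGT (0.52), LeuCAG (0.49) and ArgACG (0.71), with 31.6, 27.6 and 40.4 against 18.3, 22.8 and 19.5 CPM for the last; the lowest cisplatin library was above the highest control in each. ArgCCT (0.42) and AlaAGC (0.40) also passed the test.

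Several of the most abundant anticodons did not pass it. ValCAC, the most abundant, was at 6608, 6013 and 8028 CPM after cisplatin and 6694, 5926 and 6216 in controls, a log2 fold change of 0.13 ± 0.12. ProAGG was at 5019, 3020 and 4746 against 4179, 4722 and 4588 CPM, with a log2 fold change of -0.08 ± 0.17. LysTTT was at 4063, 3358 and 4017 against 3250, 3603 and 3640 CPM (0.12 log2). In these 3 the groups overlapped. GlyGCC (0.41), GlyCCC (0.51, edgeR adjusted p = 0.0558), ValAAC (0.35) and GluCTC (0.27) were higher on average without passing.

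In the RNAome table none of 46 tested anticodons passed edgeR's test in either direction, where 1.1% of 365 features were called higher and 0.274% lower. LeuTAG, GlyACC and ValGAC had too few counts to be tested. The median log2 fold change was 0.42 against -0.05 over all features, with 31 above 0. At an unadjusted p under 0.05, 14 were higher and 1 lower, and DESeq2 called 10 and 1. The groups did not overlap for 13 higher and 1 lower anticodons, where 11.5% and 11.2% of all features did so. Without cisplatin replicate 1, 9 rose and 1 fell.

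The smallest adjusted p were those of GluTTC and AspGTC, both 0.0623 in edgeR's test. GluTTC was at 5491, 10394 and 11473 CPM after cisplatin and 3576, 2876 and 4609 in controls, a log2 fold change of 1.31 ± 0.34. AspGTC was at 935, 1297 and 1383 against 654, 390 and 505 CPM, 1.22 ± 0.31 on the log2 scale. LysTTT was at 7568, 8025 and 5622 against 3136, 3351 and 3757 CPM, 1.05 ± 0.28 (edgeR adjusted p = 0.0642). In all 3 the cisplatin libraries lay above the controls. ArgCCT, which had risen in small RNA sequencing, was at 178, 139 and 66.4 CPM against 552, 321 and 245, all cisplatin libraries below the controls, with a log2 fold change of -1.54 ± 0.41 (edgeR adjusted p = 0.0646).

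The leading anticodons of the RNAome table varied widely between libraries. GlyGCC was at 10145, 28451 and 40197 CPM after cisplatin and 22356, 10793 and 23036 in controls, a log2 fold change of 0.49 ± 0.45. ValCAC was at 14456, 29403 and 41870 against 8966, 11658 and 16842 CPM, 1.19 ± 0.39. GlyCCC was at 7292, 14037 and 15017 against 5743, 4244 and 6705 CPM, 1.12 ± 0.34. Cisplatin replicate 1 lay below all controls in GlyGCC, within their range in ValCAC and just above them in GlyCCC. ValAAC had a log2 fold change of 1.27 ± 0.37, with cisplatin replicate 1 and the highest control both at 4033 CPM, and LysCTT one of 0.80 ± 0.29. GlyTCC was at 15201, 6019 and 3271 CPM against 7472, 4230 and 5929; without its sequences with C66G it was at 998, 1573 and 1271 against 803, 849 and 433 CPM, where the groups no longer overlapped.

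The difference between the treatment effects of the tables was tested in the joint fit. None of the 44 anticodons passed in either direction (5 and 4 at an unadjusted p under 0.05; DESeq2 called 1 higher and 1 lower), where 0.602% and 0.803% of all features did. The smallest p were those of ArgCCT, with an effect lower in the RNAome table by -1.95 ± 0.49 on the log2 scale (edgeR adjusted p = 0.0651), and LysTTT, higher by 0.95 ± 0.25 (edgeR adjusted p = 0.0739). ValCAC (1.08 ± 0.42) and ArgTCG (0.92 ± 0.36) followed, both at an edgeR adjusted p of 0.198.

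Summing each anticodon's sequences by place on the tRNA, without those at the lowest value throughout a treatment, showed which pieces moved. In small RNA sequencing 6 of 26 anticodons rose in their 5′ ends and none fell, with a median log2 fold change of 0.47 and 23 above 0. In the 3′ CCA ends 4 of 39 rose and none fell (median 0.31, 34 above 0; 1 rose without cisplatin replicate 3 and 8 without cisplatin replicate 2), and in internal pieces 5 of 39 rose (median 0.11). Over all 648 features 4.32% were called higher and 0.772% lower, with a median of -0.02. Among RNAome 5′ ends 1 of 19 anticodons rose, with a median of 1.26 and 18 above 0, where 0.735% of 408 features were called higher and 0% lower and the median over all was -0.09. No overlap between treatments was seen for 12 of the 26 small RNA 5′ ends, higher, and 1, lower, where 15.7% and 13.1% of all features were so, and for 6 of the 19 RNAome 5′ ends, all higher, where 8.82% and 11.3% were so. The RNAome 3′ CCA ends had no call among 31 anticodons and a median of -0.22, with 10 above 0, and the internal pieces none among 21. Of the sequences not placed on a tRNA, 1 of 28 RNAome anticodons rose, SerCGA, at 31.3, 49.0 and 25.5 CPM against 1.28, 2.32 and 4.63 (3.77 ± 0.56, edgeR adjusted p = 0.0157), and none of 26 in small RNA sequencing. The SerCGA value rested on 1 sequence of 25 bases, with 37, 37 and 18 counts against 1, 3 and 2. Its controls were thus at or just above the table's lowest value of 1. The RNAome count of 5′ ends was 10 without cisplatin replicate 1 and 0 without cisplatin replicate 2 or without any 1 of the 3 controls, and it was 8 with the sequences at the lowest value counted.

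**Figure D4:**
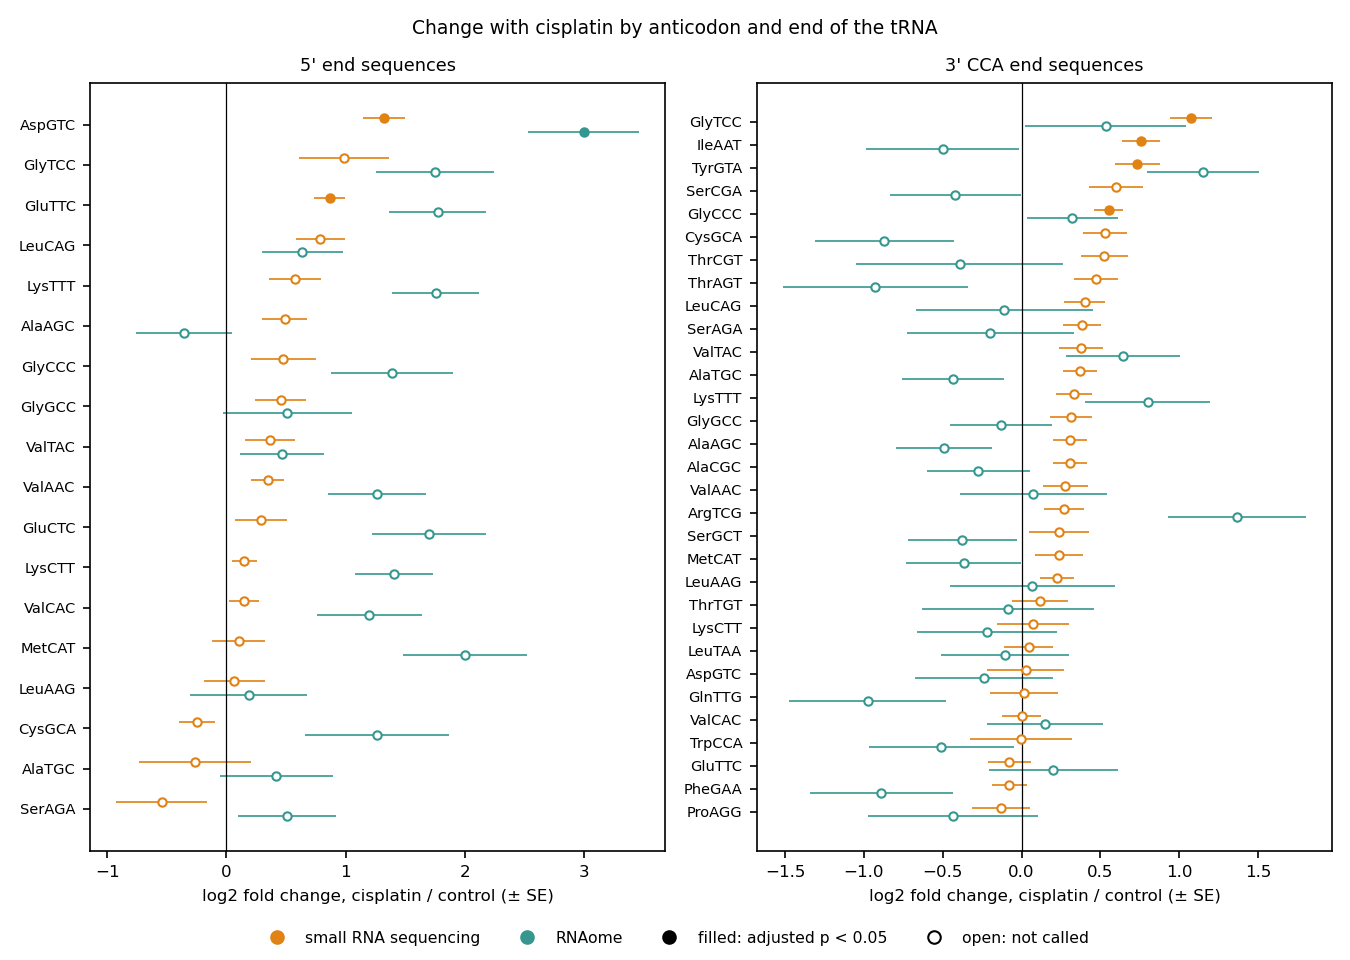
Log2 fold change with cisplatin (x axis, ± SE) of 5′ end sequences (left) and 3′ CCA end sequences (right), summed per anticodon, for anticodons tested in both tables; filled points passed edgeR's test. The 5′ ends of AspGTC passed in both tables, at 1.32 and 3.0, and the RNAome points of the 5′ ends lie mostly to the right of those of the 3′ ends.

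AspGTC was called for its 5′ ends in both tables. They were at 430, 496 and 559 CPM after cisplatin in small RNA sequencing and 222, 220 and 153 in controls, a log2 fold change of 1.32 ± 0.18 (edgeR adjusted p = 0.0067). They were at 237, 599 and 790 CPM in the RNAome table against 64.2, 75.0 and 62.5 CPM, 3.0 ± 0.47 on the log2 scale (edgeR adjusted p = 0.0157). Every cisplatin library was above every control in either table. The printed 32-base sequence carried most of it, at 296, 378 and 389 against 131, 125 and 66.6 CPM in small RNA sequencing (1.72 ± 0.23, edgeR adjusted p = 0.0033) and 170, 431 and 555 against 57.9, 54.8 and 36.2 in the RNAome table (2.94 ± 0.51, edgeR adjusted p = 0.00375). The AspGTC 5′ ends also differed in where they ended. In small RNA sequencing 74.7%, 79.1% and 76.6% of their counts ended at position 32 after cisplatin and 64.5%, 64.8% and 49.0% in controls, groups that did not overlap (exact permutation p = 0.1). The same RNAome share was 83.2%, 88.9% and 89.2% against 86.0%, 78.4% and 66.7%, and the groups overlapped.

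GluTTC rose in its 5′ ends in small RNA sequencing, from 1579, 1495 and 1510 CPM in controls to 2374, 2625 and 3352 after cisplatin, by 0.87 ± 0.13 on the log2 scale (edgeR adjusted p = 0.0085). The RNAome values were 3094, 6930 and 8901 against 1844, 1433 and 2267 CPM, 1.77 ± 0.40 (edgeR adjusted p = 0.0569). The sequences labelled GluTTC were of separate kinds, a split made after seeing their values: some matched a GluTTC gene exactly, and others matched only another anticodon's tRNA or lacked a base of the gene. The exact ones were at 1465, 1706 and 2048 CPM against 748, 886 and 844 in small RNA sequencing, and at 1584, 3562 and 4990 against 189, 410 and 387 in the RNAome table. The other ones were at 909, 920 and 1304 against 831, 609 and 666 in small RNA sequencing, and in the RNAome table at 1510, 3368 and 3911 against 1655, 1023 and 1880 CPM. So in the RNAome table the exact GluTTC pieces were separated between treatments (a difference of mean log2 CPM of 3.29) and the remaining ones overlapped (0.88).

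The first printed GluTTC sequence, of 33 bases, was at 628, 832 and 972 CPM after cisplatin and at 318, 322 and 326 in controls in small RNA sequencing, with a log2 fold change of 1.33 ± 0.15 (edgeR adjusted p = 0.0017). It had 692, 921 and 1446 counts against 33, 136 and 34 in the RNAome table, that is 608, 1179 and 2026 against 47.8, 111 and 72.5 CPM, and a log2 fold change of 4.03 ± 0.53 (edgeR adjusted p = 0.00145). The second printed GluTTC sequence, which has another base at a single position, was at 428, 1001 and 1404 against 29, 77.7 and 38.4 CPM there (4.26 ± 0.57, edgeR adjusted p = 0.00145). For both, every RNAome library of cisplatin was several times above every control. GluTTC 5′ ends ended at position 33 more often after cisplatin, in 58.5%, 62.9% and 61.6% of counts against 52.4%, 56.5% and 54% in small RNA sequencing and in 50.1%, 49.1% and 54.4% against 37.4%, 38.1% and 33.8% in the RNAome table, without overlap in either (exact permutation p = 0.1). The RNAome table, with no sequence longer than 33 bases, can hardly show later ends.

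GlnTTG 5′ ends rose in small RNA sequencing, at 108, 117 and 102 CPM against 28.1, 47.2 and 52.3, by 1.36 ± 0.23 on the log2 scale (edgeR adjusted p = 0.0109). The printed GlnTTG sequence had, in the RNAome table, 39, 97 and 24 counts after cisplatin and stood at the lowest value of 1 in all 3 controls, so no fold change can be given. The other 3 anticodons whose 5′ ends rose in small RNA sequencing, ArgACG, TrpCCA and PheGAA, were scarce, with ArgACG at 13.3, 11.1 and 14.3 CPM against 3.62, 4.07 and 3.11. The lysine 5′ ends were higher in all RNAome cisplatin libraries: LysCTT at 711, 1289 and 1266 against 409, 430 and 391 CPM (1.41 ± 0.33, edgeR adjusted p = 0.0569) and LysTTT at 575, 956 and 990 against 240, 178 and 331 (1.76 ± 0.37). Neither passed the test. The LysTTT sequences that matched a LysTTT gene exactly overlapped, at 95.5, 375 and 456 CPM against 146, 93.5 and 134. Those labelled LysTTT without such a match did not overlap, at 479, 581 and 533 against 93.8, 84.2 and 197 CPM. GluCTC 5′ ends were at 462, 1133 and 1859 against 376, 263 and 424 CPM (1.70 log2) and those of MetCAT at 200, 546 and 547 against 176, 85.0 and 57.9 CPM (2.01 ± 0.52), again not called. All of these GluCTC counts came from 12 sequences without an exact match to a GluCTC tRNA.

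Several of the most abundant 5′ end sequences did not pass the test. The ValCAC sequence printed above was at 2429, 2500 and 3048 CPM after cisplatin and 2604, 2056 and 2310 in controls in small RNA sequencing (log2 fold change 0.19). Its RNAome values were 10962, 22621 and 34300 against 8336, 9816 and 13146 CPM (1.12, edgeR adjusted p = 0.133), the groups overlapping through cisplatin replicate 1. The printed GlyGCC sequence was at 2253, 7846 and 10365 against 6933, 3513 and 7644 CPM there, with cisplatin replicate 1 below all controls. The GlyCCC sequence was at 678, 1878 and 2385 against 508, 400 and 983 CPM, also overlapping. In small RNA sequencing the printed ValAAC sequence did rise, at 665, 689 and 1062 against 531, 475 and 480 CPM (0.70 ± 0.17, edgeR adjusted p = 0.0376).

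**Figure D5:**
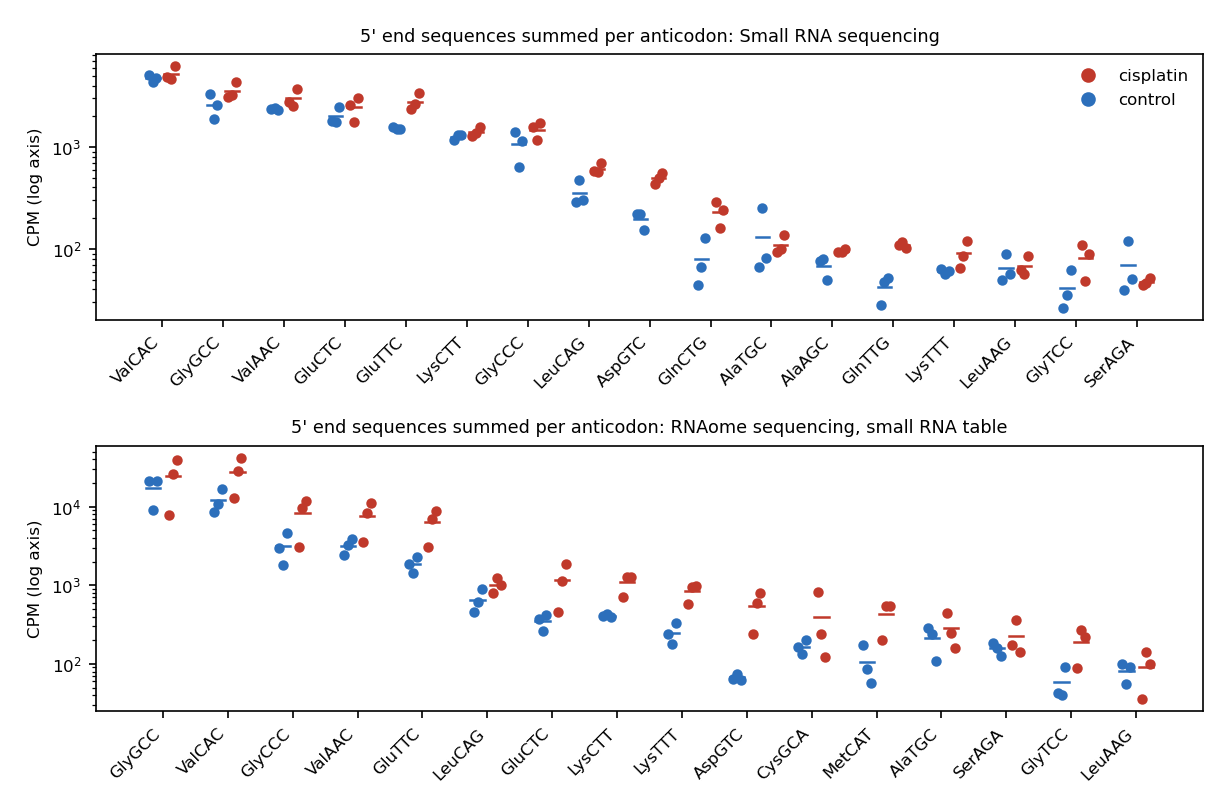
CPM of 5′ end sequences summed per anticodon (y axis, log scale) in each library, with a line at the mean of 3, ordered by level, in small RNA sequencing (top) and the RNAome table (bottom). AspGTC and GluTTC show cisplatin libraries above all controls in both tables, while GlyGCC in the RNAome table spans 7757 to 39407 CPM within the cisplatin group.

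Among 3′ CCA ends, those of 22 bases made up a larger share after cisplatin and those of 17 and 18 bases a smaller one in small RNA sequencing. The 22-base pieces were 32.7%, 34.5% and 32.6% of the CCA-end counts after cisplatin and 28.3%, 25.5% and 27.4% in controls (33.2 ± 1.06 against 27.1 ± 1.41, SD, exact permutation p = 0.1). The pieces of 17 and 18 bases went from 60.3% ± 1.63 in controls to 55.6% ± 1.90. Neither pair of groups overlapped. The 22-base pieces of the RNAome table were at 15.0%, 19.8% and 39.7% against 16.2%, 15.5% and 16.7%, and cisplatin replicate 1 was below all controls. Pieces of 25 or more bases held 29.9% and 29.5% of CCA-end counts in cisplatin replicates 2 and 3 but 6.73% in replicate 1, against 8.29%, 7.09% and 8.65% in controls.

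The CCA ends of GlyTCC, IleAAT, TyrGTA and GlyCCC rose in small RNA sequencing. GlyTCC ends were at 559, 530 and 575 CPM against 294, 277 and 218 (1.08 ± 0.13, edgeR adjusted p = 0.0058), IleAAT ends at 224, 200 and 236 against 141, 117 and 131 (0.76 ± 0.12, edgeR adjusted p = 0.0094). TyrGTA ends were at 307, 264 and 297 CPM against 143, 183 and 196 (0.73 ± 0.14, edgeR adjusted p = 0.0241). GlyCCC ends were at 1853, 1634 and 1747 against 1252, 1185 and 1132 CPM (0.55 ± 0.09, edgeR adjusted p = 0.0109). They include a 22-base sequence with T68C, at 449, 428 and 369 against 296, 217 and 297 CPM, that matches only another anticodon's tRNA exactly. For all 4 the lowest cisplatin library was above the highest control. None of the 4 was called in the RNAome table, where the GlyCCC, GlyTCC and TyrGTA ends had log2 fold changes above 0 and the IleAAT ends one below.

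Single 22-base CCA ends with a mean of 50 CPM or more, a group picked after seeing the data, were set out by their base at position 58. In small RNA sequencing, without sequences at the lowest value, 6 of 10 with another base than the genome rose (median log2 fold change 0.95, from 0.03 to 1.64), as did 2 of 16 with the genome's base (median 0.41, from 0.11 to 0.95), where 1.4% of 7066 sequences were called higher. Those not called included the ProAGG sequences with A57G and A57T, at 0.15 and 0.03. RNAome sequencing had no call in either set, with medians of 1.37 over 7 sequences and -0.15 over 11. The values of single sequences that follow are from the fit of all sequences. The printed GlyCCC sequence with A56T was at 622, 599 and 637 CPM after cisplatin and 248, 167 and 170 in controls (1.67 ± 0.16, edgeR adjusted p = 0.00114). GlyTCC with A57T was at 531, 529 and 551 against 279, 236 and 199 CPM (1.17 ± 0.14, edgeR adjusted p = 0.00193), and LysTTT with A58G at 383, 440 and 415 against 208, 226 and 178 (1.02 ± 0.13, edgeR adjusted p = 0.00297). AlaTGC, with the genome's base there, was at 870, 667 and 803 against 658, 584 and 577 CPM (0.36, edgeR adjusted p = 0.122). Over all anticodons, 35.5%, 37.1% and 36.8% of 22-base CCA-end counts had another base than the genome at position 58 after cisplatin and 28.8%, 29.7% and 28% in controls, without overlap (36.4 ± 0.859 against 28.8 ± 0.814, SD, exact permutation p = 0.1). The RNAome shares were 56.2%, 60.6% and 62.5% against 50.3%, 47.8% and 26.5%, again without overlap. Over all sequences that crossed position 58, the small RNA shares were 35.8%, 36.6% and 36.5% against 29.2%, 32.5% and 32.4%, without overlap (exact permutation p = 0.1). By that count the RNAome shares were 33.2%, 58.47% and 56.02% against 35.34%, 36.61% and 15.98%, which overlapped (exact permutation p = 0.3). Cisplatin replicate 1 then lay below control replicates 1 and 2 in the RNAome table. The printed GlyCCC and GlyTCC sequences had smaller log2 fold changes there: GlyCCC with A56T was at 790, 863 and 1100 against 702, 614 and 339 CPM (0.73, edgeR adjusted p = 0.338) and GlyTCC with A57T at 530, 593 and 703 against 611, 394 and 83.1 (0.74), which overlapped. The 28-base LysTTT end with A58G was at 300, 1166 and 573 against 158, 175 and 17.1 CPM in the RNAome table (2.52 ± 0.71, edgeR adjusted p = 0.0595).

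In sequences that crossed an adenosine at the anticodon's first position, the share of counts with G there was 91.7% ± 0.693 after cisplatin and 90.0% ± 0.665 in controls of small RNA sequencing (SD, n = 3), without overlap (exact permutation p = 0.1). It came almost wholly from ValAAC, with G in 94.7% of 54721 counts. IleAAT had G in 67.5% of 1706 counts, ThrAGT in 72.4% of 1044 and ProAGG in 7.84% of 1838. With no sequence longer than 33 bases the RNAome table held 46 such counts for ValAAC, and its treatments overlapped. Over all anticodons the RNAome share with G was 48.8% ± 12.4 (SD, n = 6), lower than in small RNA sequencing in 6 of 6 pairs (exact sign-flip permutation test, adjusted p = 0.0625). That share pools anticodons present in different proportions. IleAAT had G in 94.9% of 311 RNAome counts, ProAGG in 22.7% of 207 and ValAAC in 100% of 46, each higher than in small RNA sequencing. ThrAGT was lower, with G in 0% of 14. ArgACG, with G in 5.2% of 269 RNAome counts, had no such counts in small RNA sequencing.

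Taken one by one, 205 of 1852 tested sequences rose and 15 fell in small RNA sequencing, where 5.43% of 8317 tested sequences were called higher and 1.43% lower. Of these, 91 of the higher and all 15 of the lower ones were at the table's lowest value throughout a treatment. A fit without such sequences called 51 of 1573 higher and none lower, where 1.4% of 7066 sequences were higher and 0.0566% lower. Leaving out single libraries moved the 205 to 74 (without cisplatin replicate 2), 91 (without cisplatin replicate 3), 109 (without control replicate 1) and 40 (without control replicate 3). The median log2 fold change of the 1573 was 0.23 against -0.02 over all. Of the 51, 26 were 5′ ends (401 tested, median 0.28), 13 were 3′ CCA ends (400 tested, median 0.32) and 12 were internal (631 tested, median 0.18). Among CCA ends 9 of 123 of 22 bases and 0 of 47 of 17 bases passed. GluTTC had 12 of the 51, GlnTTG 7 and LysTTT 5. The same fit of the RNAome table called 29 of 593 higher and none lower, where 2.17% of 2078 sequences were higher and 0.0481% lower, with a median of 0.42 against -0.05. There 20 of the 29 were 5′ ends, of 171 tested with a median of 1.11, and 1 was a CCA end, of 182 tested with a median of -0.32. GluTTC had 10 of the 29 and GlyCCC 4. With the sequences at the lowest value counted, 87 of 635 rose and 5 fell, where 5.59% and 0.752% of 2127 were called; the 87 became 212 without cisplatin replicate 1, 54 without control replicate 1 and 21 without control replicate 2.

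One 5′ piece that ended short of the anticodon loop rose in small RNA sequencing. LeuCAG of 25 bases, which matches a gene at chr8:39276255-39276337, plus strand, in an intron of Sgcz, was at 64.4, 77.5 and 89.7 CPM against 22.1, 21.5 and 20.5 (log2 fold change 1.85 ± 0.18, edgeR adjusted p = 0.00114). The sequence also matches a tRNA of another anticodon exactly, so its letters do not show which gene it came from. It ends at position 25, before the anticodon. Its sequence is
LeuCAG of 25 bases: gucaggauggccgaguggucuaagg

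As a share of the tRNA counts, no amino acid passed a test of cisplatin against control. Among small RNA shares cysteine, isoleucine, leucine and tyrosine were higher without overlap, and methionine, phenylalanine and proline lower. Proline was at 9.31%, 6.86% and 8.13% after cisplatin and 9.63%, 10.3% and 10.4% in controls, and tyrosine at 0.698%, 0.714% and 0.645% against 0.493%, 0.594% and 0.604%. RNAome aspartate was at 1.00%, 0.983% and 0.941% against 0.879%, 0.641% and 0.599%, and glutamate at 7.30%, 9.60% and 9.74% against 6.01%, 6.18% and 7.23%; both were higher without overlap and no amino acid was lower. Each had an exact permutation p of 0.1, the smallest 3 against 3 allows, and 0.467 after adjustment over the 42 comparisons. Without control replicate 2, 9 were higher without overlap in small RNA sequencing, and 6 lower without control replicate 1. Among RNAome shares 4 were higher without cisplatin replicate 3, and 13 were lower without cisplatin replicate 1, 7 without control replicate 3 and 1 without control replicate 2.

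The mRNA libraries give the genes that make, modify and cut tRNAs. Of 13924 genes tested, 18.5% rose and 19.3% fell, with a median log2 fold change of 0.01. Of 30 genes of RNA polymerase III transcription 6 rose and 8 fell (median -0.02); the rises numbered 2 without cisplatin replicate 2 and 1 without control replicate 1. Gtf3c1, the largest subunit of the factor that binds the promoter inside tRNA genes, rose from 186, 193 and 185 CPM to 220, 264 and 257 CPM (log2 fold change 0.39), while the polymerase subunit Polr3b and the initiation factors Tbp and Bdp1 fell by 0.31, 0.30 and 0.30 on the log2 scale. Of 25 genes of end processing, splicing and export 2 rose and 4 fell (median -0.05): Trnt1, which adds CCA, fell by 0.26, the exporter Xpot by 0.21 and Rpp25, a subunit of RNase P and MRP, by 0.31, while Pop5, another such subunit, rose by 0.35. There the rises numbered 1 without cisplatin replicate 3 or control replicate 1, and the falls 2 without cisplatin replicate 3. Of 45 modification genes 2 rose and 8 fell (median -0.07), with 1 rise without cisplatin replicate 2 or 3 and 0 without control replicate 1. Cdkal1, which methylthiolates an adenosine beside the anticodon of lysine tRNA, fell from 23.5, 23.5 and 25.4 CPM to 9.25, 9.24 and 7.71 CPM, by 1.46 on the log2 scale. The cytosine methyltransferase Nsun2 fell by 0.26 and the acetyltransferase Nat10 by 0.21. Of 12 tested genes of cleavage and turnover 1 rose and 4 fell (median 0.01): the microRNA-processing nucleases Drosha and Dicer1 fell by 0.35 and 0.30 and the exonuclease Xrn2 by 0.24, and Rnase4, a secreted ribonuclease whose transcripts share first exons with angiogenin, so that their reads can be split, rose from 1.88, 2.54 and 2.59 CPM to 5.47, 5.06 and 4.74 CPM (1.10). Drosha and Dicer1 act on the miRNAs that serve as the reference for the tRNA levels above; the part of miRNA levels in the tRNA differences was not tested.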

How the data were processed

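Per the labels' protocols, small RNA, RNAome and mRNA libraries came from the same 6 RNA samples. The authors deposited raw read counts, per distinct sequence in the small RNA tables and per RefSeq transcript in the mRNA table. The submitters' processing notes name Bowtie, TopHat, edgeR and mm9; how the lowest counts were set is not stated there. The members and gene lists were chosen with earlier results of these data known. Names containing "trna" were taken as tRNA, since none begins with that word.

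Counts were summed per anticodon beside miRNA names and tested with edgeR 4.0.16 (R 4.3.3; filterByExpr, TMM, quasi-likelihood test, Benjamini-Hochberg adjusted p under 0.05), with the scripts tested on simulated data and DESeq2 1.42.0 and other settings as alternatives. Single values were compared by exact permutation. tRNAs were rebuilt on NCBIM37, and sequences placed with at most 2 mismatches or, from 20 bases, 1 skipped base. Splits by place, by last base and by exact match, and fits without sequences at the lowest value, were chosen after seeing the data. Named were the 8 most abundant anticodons per table, up to 10 called per direction or the 4 of smallest p, the 4 leading differences between tables, and up to 4 genes of each list; other names and most single sequences were chosen after their values were seen. RefSeq entries matched a gene symbol for 18453 of 18943. The sample code pairs the tables: deviations of the same RNA in both correlated by -0.08 to 0.41, and a block by RNA sample changed no call. A few values named by these rules are not reported here.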

Additional observations from a re-analysis of the deposited data

How the results depend on the processing

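The anticodon results in small RNA sequencing (12 higher, 0 lower) kept their direction, but the count of higher calls was 2 with tRNA features alone (with 1 lower), 4 with a replicate block by the middle number of the sample code, 1 with other genomic fragments added, and 3 to 18 leaving out 1 library (0 lower). For the RNAome table (0 and 0), DESeq2 called 10 higher and 1 lower, no filter 5 and 1, library totals 5 higher, the leading sequence per anticodon 3 higher, tRNA features alone 1 lower, and leave-one-out 0 to 9 higher and 0 to 1 lower. Single sequences in small RNA sequencing (205 and 15) gave 127 and 6 with DESeq2, 29 lower without a filter, 51 and 0 without sequences at the lowest value throughout a treatment, and 40 to 256 and 0 to 29 leaving out 1 library. Those of the RNAome table (87 and 5) gave 10 lower with DESeq2, 134 and 52 without a filter, 29 and 0 without those at the lowest value, and 21 to 212 and 6 to 80 leaving out 1 library. The 5′ ends gave 4 to 7 (small RNA) and 0 to 10 (RNAome) leaving out 1 library; for RNAome they gave 7 with DESeq2, 4 with library totals, 4 with scaling to miRNAs and 8 with lowest-value sequences counted. The CCA ends in small RNA sequencing gave 7 with DESeq2 and 1 to 8 leaving out 1 library; in the RNAome table they gave 1 higher with DESeq2, 1 lower with lowest-value sequences counted, and 0 to 2 higher leaving out 1 library. None of the end classes called higher in the reported fit gave a lower call when 1 library was left out (0 to 0).

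The difference of effects gave 1 higher and 1 lower with DESeq2, 1 lower with tRNA features alone and 0 leaving out 1 RNA sample. The level difference (27 and 5) gave 12 and 18 with tRNA features alone, 9 lower without lowest-value sequences, and 24 to 31 and 5 to 6 leaving out 1 sample. The RNAome share difference of 5.95 points was 1.24 with other fragments in the denominator, 7.6 with HisGTG counted and 5.45 to 6.94 leaving out 1 library; the small RNA difference of 1.15 ranged from 0.713 to 1.46. The mean length difference ranged from -0.046 (without control replicate 2, reversed) to 0.53 bases in small RNA sequencing and 0.57 to 3.82 in the RNAome table. Amino acids without overlap ranged over 4 to 9 higher and 3 to 6 lower in small RNA sequencing, and 2 to 4 and 0 to 13 in the RNAome table, where 1 was higher with HisGTG counted and 1 without lowest-value sequences. Between tables, 5 pairs cannot reach the threshold, and 0 amino acids passed. Polymerase III genes gave 2 higher with DESeq2 and 1 to 6 higher and 6 to 9 lower leaving out 1 library, end processing 1 to 3 and 2 to 5, modification 1 higher with DESeq2 and 0 to 3 and 6 to 9, cleavage 1 and 4. Log2 fold changes that turned sign were, with tRNA features alone, GluCTC (-0.093), LysTTT (-0.22; -0.056 from its leading sequence) and ValCAC (-0.22), ProAGG without cisplatin replicate 2 (0.11), and RNAome GlyTCC without cisplatin replicate 1 (-0.33; -0.33 to 0.85 leaving out each library) and with the replicate block (-0.34). The causes were not tested, except that leaving out a library leaves fewer samples. The middle numbers 8.4 and 8.5 occur in both treatments, but the labels do not say that they pair samples; deviations of these 2 pairs correlated by 0.34 in small RNA and 0.03 in RNAome sequencing.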
